A study of Homo sapiens with 2 samples.

Results

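Of the ING5 ChIP-seq peaks found in untreated HepG2 cells, a human liver cancer line, 459 were classed as intergenic. The classing used those GENCODE genes that had a GRCh38 position. An intergenic peak's summit lay over 1000 bp from every transcription start site (TSS) of such a protein-coding or long non-coding RNA (lncRNA) gene. It also lay outside the body of every such protein-coding gene. Genes without a position were not seen, and 66 of the 459 peaks met a RefSeq start or RefSeq protein-coding gene. Peaks on chromosomes 1 to 22 and X were eligible, except those in the first 46 Mb of chromosome 5 and between 3 and 5 Mb of chromosome 11. The 459 intergenic peaks made up 5.65% (95% interval 5.16 to 6.18) of 8117 eligible peaks, out of 8608 peaks in the whole list. The other eligible peaks comprised 6388 at a protein-coding start, 316 at a lncRNA start only and 954 inside a protein-coding gene body. No measured height or enrichment entered the choice.

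The study used 1 library made with an antibody against ING5 from Proteintech and 1 library of input DNA, to which no antibody was applied. Both came from untreated HepG2 cells, and their aim was to find genes that ING5 targets. The peak caller counted 12416160 fragments for ING5 and 9915170 for input in the alignments it used. The peak list is the one file analysed. With 1 library per group there was no replicate error, so no difference was tested, and all intervals below cover counting error over peaks only. Positions are GRCh38, the build to which the list's sequence names belong, although the labels name GRCh37.

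ING5 belongs to the inhibitor of growth family. Its plant homeodomain finger binds the tail of histone H3 when lysine 4 carries methyl groups, a mark found mainly at active gene starts, and the protein works inside MYST-type acetyltransferase complexes that acetylate histones. Intergenic sequence holds distal enhancers, starts of transcripts that one annotation lists and another does not, and repeated sequence near centromeres, and a peak's position alone does not tell these apart.

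The labelled cell type could not be checked from these peaks, which do not measure expression. None of 16 secreted-protein genes that mark hepatocytes, among them ALB, APOA1 and SERPINA1, had a peak within 1000 bp of its start or an intergenic peak within 50 kb. Of 25 liver transcription factor genes, 9 (36.0%) had such a promoter peak and 3 an intergenic peak within 50 kb. Protein-coding genes as a whole had a promoter peak in 30.8% of cases and an intergenic peak within 50 kb in 3.05%. At so low a share, finding no intergenic peak near 16 genes says little.

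The intergenic class depends on which annotation is asked. Of its peaks, 251 (54.7%) lay in no annotated gene at all. A further 121 (26.4%) lay in a lncRNA gene, 47 (10.2%) in a gene that RefSeq calls protein-coding, 21 (4.58%) in a pseudogene or other gene, and 19 (4.14%) within 1000 bp of a RefSeq start. GENCODE positions were read from an annotation that does not carry the GRCh38 position of every gene, so genes such as DDIT4, PPP2R2D and CD24 were not seen by the rule. In all, 66 peaks (14.4%, 11.3 to 17.9) met a RefSeq start or RefSeq protein-coding gene.

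The RefSeq sequence (GRCh38.p14) at these starts is shown for the 3 starts whose peaks had the highest enrichment among these 19, and for CD24, whose whole window lay inside its peak. Each window runs from 250 bases before to 50 bases after the start, 5′ to 3′ on the gene's strand, with every CG pair in capitals. DDIT4, at chr10:72273674-72273973 on the plus strand, encodes a stress-induced inhibitor of mTORC1 signalling. PPP2R2D, at chr10:131900758-131901057 on the plus strand, encodes a regulatory subunit of protein phosphatase 2A. LOC124905136, at chr22:46035860-46036159 on the plus strand, is a RefSeq gene without a given role. CD24, at chr6:106973990-106974289 on the minus strand, encodes a cell-surface glycoprotein.
DDIT4: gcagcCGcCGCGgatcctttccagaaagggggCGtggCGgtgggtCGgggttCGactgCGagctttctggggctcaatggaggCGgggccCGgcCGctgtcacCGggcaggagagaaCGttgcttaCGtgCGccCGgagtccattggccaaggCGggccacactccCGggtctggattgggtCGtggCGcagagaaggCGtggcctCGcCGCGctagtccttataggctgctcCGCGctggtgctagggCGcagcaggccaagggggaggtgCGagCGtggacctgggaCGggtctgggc
PPP2R2D: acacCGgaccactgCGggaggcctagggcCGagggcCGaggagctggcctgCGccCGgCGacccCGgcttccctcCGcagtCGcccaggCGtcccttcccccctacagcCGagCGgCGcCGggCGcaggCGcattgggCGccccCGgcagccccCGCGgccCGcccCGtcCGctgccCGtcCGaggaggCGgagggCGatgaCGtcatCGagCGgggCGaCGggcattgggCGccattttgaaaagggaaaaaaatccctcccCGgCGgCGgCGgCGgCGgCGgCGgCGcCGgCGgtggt
LOC124905136: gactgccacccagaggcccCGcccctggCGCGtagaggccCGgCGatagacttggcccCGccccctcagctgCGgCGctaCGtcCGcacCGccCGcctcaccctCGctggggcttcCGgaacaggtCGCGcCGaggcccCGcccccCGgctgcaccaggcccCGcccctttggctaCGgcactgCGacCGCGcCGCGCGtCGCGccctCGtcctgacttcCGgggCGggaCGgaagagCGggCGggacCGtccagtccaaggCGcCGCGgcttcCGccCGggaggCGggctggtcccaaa
CD24: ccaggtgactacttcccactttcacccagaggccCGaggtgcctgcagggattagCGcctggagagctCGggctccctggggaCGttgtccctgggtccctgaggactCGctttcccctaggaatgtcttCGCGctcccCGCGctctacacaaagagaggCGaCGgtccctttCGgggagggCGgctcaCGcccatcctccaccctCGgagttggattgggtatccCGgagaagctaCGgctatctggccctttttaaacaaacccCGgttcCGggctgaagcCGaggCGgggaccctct

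The DDIT4 peak covered 72274037 to 72275866 of chromosome 10 and held 33 fragments at its summit, 18.3-fold over background, with the summit 980 bp downstream of the RefSeq start. At PPP2R2D the summit lay 702 bp downstream of the start and held 24 fragments, 13.5-fold over background. Both windows lay wholly outside their peaks. The LOC124905136 peak, with 24 fragments and 11.1-fold enrichment, covered 42 of the window's 300 bases, and the CD24 peak, with 10 fragments and 5.94-fold enrichment, covered all 300. CD24's summit was the only one of the 4 upstream of its start, by 116 bp.

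These windows were rich in CG pairs. There were 45 in the PPP2R2D window, 42 in that of LOC124905136, 30 in that of DDIT4 and 21 in that of CD24, against a median of 14 over all 34943 RefSeq windows used here, chromosome 8 not among them. The 20 windows whose start lay within 1000 bp of an intergenic peak had a median of 19.

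Intergenic peaks were low, narrow and weakly enriched, much like peaks inside gene bodies. Pileup is the number of ING5 fragments over the summit. Fold enrichment is the ratio of that pileup to the local background after a pseudocount of 1 is added to each. Both are as the authors' peak caller gave them for each peak. The median pileup was 10 fragments (quartiles 9 and 12) at intergenic peaks, 12 (quartiles 10 and 15) at the other eligible peaks, and 10 at gene-body peaks. Median fold enrichment was 5.42 (95% interval 5.40 to 5.94) at intergenic peaks, against 6.47 at the other eligible peaks and 5.40 at gene-body peaks. The median length was 252 bp (242 to 274) for intergenic peaks, 348 bp (341 to 354) for other eligible peaks and 248 bp (241 to 256) for gene-body peaks. The shortest length in every class was 183 bp, which is also the fragment size in the file's header.

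**Figure D1:**
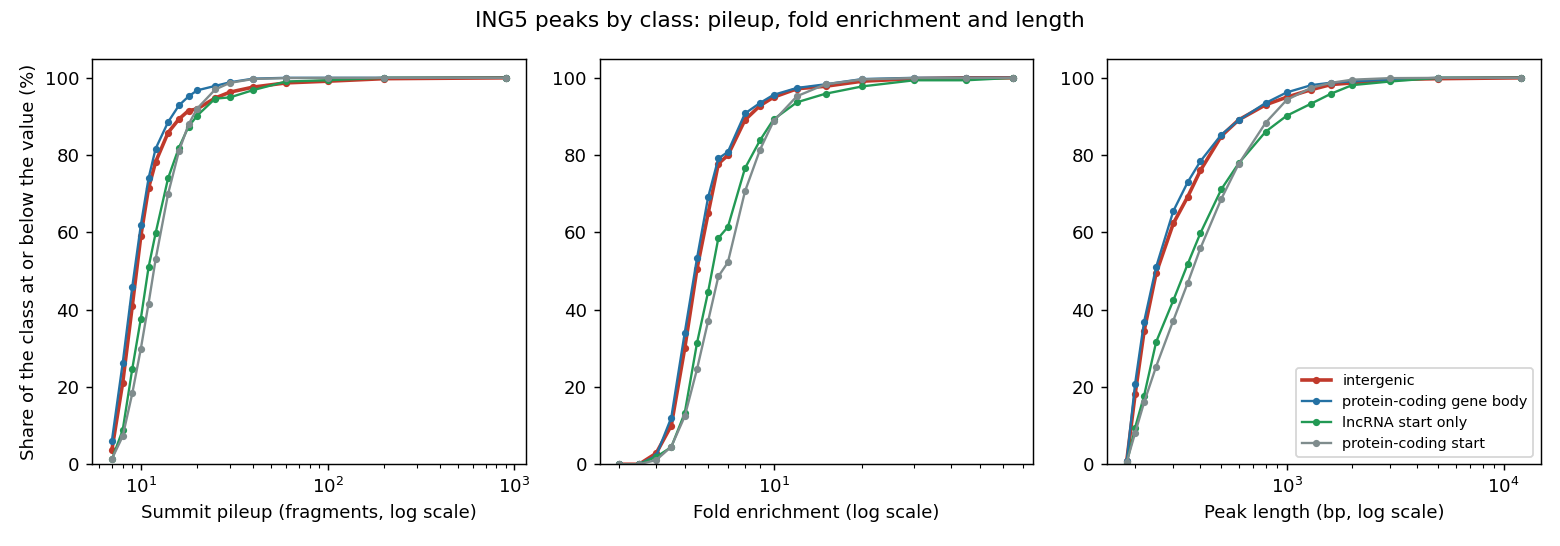
Cumulative share of peaks (%, vertical axis) at or below each summit pileup (fragments), fold enrichment and peak length (bp), all on log scales, for the 459 intergenic peaks, 954 protein-coding gene-body peaks, 316 peaks at a lncRNA start only and 6388 at a protein-coding start. The intergenic and gene-body curves run together, and both reach their medians (10 and 10 fragments, 252 and 248 bp) at lower values than the start classes.

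Few intergenic peaks stood high. A fold enrichment of at least 10 was reached by 23 of 459 (5.01%, 3.20 to 7.42) intergenic peaks and by 792 (10.3%) of the others, where the share over all eligible peaks was 10.04%. Among the 1000 eligible peaks with the lowest p-values, 35 were intergenic. Pileup was at most 10 fragments at 271 intergenic peaks (59.0%) and above 20 at 37 (8.06%). Of those 37, 16 sat on a local background of over 3 fragments. A length of 1000 bp or more was found at 23 (5.01%) of the intergenic peaks and at 5.68% of the others.

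Local background, recovered from pileup and fold, was at its lowest, genome-wide value of 0.853 fragments for 288 intergenic peaks (62.7%) and for 63.9% of the others. It exceeded 3 fragments at 18 intergenic peaks (3.92%, 2.34 to 6.13), against 12 of the other eligible peaks (0.157%). Of these 18 intergenic peaks, 13 lay over 100 kb from any GENCODE protein-coding gene with a position. Their median pileup was 31.5 fragments, while their median fold enrichment was 6.22.

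The 10 intergenic peaks with the highest enrichment included 3 in MIRLET7BHG and 2 in the HOXA cluster, and the other peaks lay at a separate locus each. The first, 41.5-fold with 76 fragments, covered chr22:46075822-46082726 in MIRLET7BHG, the host transcript of let-7 microRNAs. It was also the widest, at 6905 bp. Peaks of 22.3-fold (60 fragments, chr22:46063564-46065750) and 17.3-fold (50 fragments, chr22:46066636-46068038) lay in the same gene. All 3 had PPARA, the gene of a nuclear receptor that drives fatty acid oxidation, as the nearest GENCODE protein-coding gene, 69.0 kb, 85.9 kb and 83.6 kb away, while RefSeq places them inside LOC124905135, which it calls protein-coding.

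The second, 26.1-fold with 60 fragments, lay 3.69 kb beyond the 3′ end of CDKN2C, which encodes the cell cycle inhibitor p18, at chr1:50976179-50979138. Peaks in the HOXA cluster, whose genes set position along the body axis, reached 21.6-fold (39 fragments, chr7:27187531-27189712, in HOXA11-AS) and 16.2-fold (29 fragments, chr7:27204786-27206207, in the lncRNA HOTTIP). Upstream of IGF2BP3, whose product binds RNA in fetal tissue and tumours, a peak reached 16.4-fold with 35 fragments at chr7:23473390-23474370. Another of 16.4-fold, with 36 fragments and a length of 3242 bp, lay 26.2 kb upstream of CD177, a neutrophil surface protein gene, at chr19:43325830-43329071.

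DDIT4's peak, described above, belonged to the same 10, with ANAPC16 as its nearest GENCODE protein-coding gene 39.0 kb away. The last of them, 15.6-fold with 28 fragments at chr1:143238039-143238245, lay 656 kb from H3-7, a histone gene. CDKN2C, PPARA, HOXA11, HOXA13 and IGF2BP3 also had a promoter peak of their own, whereas CD177, ANAPC16 and H3-7 had none.

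The highest pileups were found elsewhere. At chr1:125180080-125180340 the pileup was 807 fragments, but the local background was 119.6 fragments and the enrichment 6.70-fold. Peaks at chr1:143214661-143214856, chr17:26603787-26603983 and chr21:8234390-8234633 held 165, 143 and 137 fragments over backgrounds of 15.7, 22.5 and 25.7 fragments, and their enrichments were 9.97-fold, 6.12-fold and 5.17-fold. None of these 4 was longer than 261 bp, and each lay 679.8 kb or more from a GENCODE protein-coding gene with a position. The fifth highest pileup, 76 fragments, belonged to the first MIRLET7BHG peak, whose background was 0.853 fragments.

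Distances to the nearest protein-coding gene body spread widely. The median was 19.6 kb (95% interval 16.4 to 24.7), the quartiles were 5.27 and 61.0 kb, and the extremes were 102 bp and 4401 kb. These distances are to GENCODE genes with a GRCh38 position, so genes without one were passed over. Adding RefSeq starts and gene bodies left 393 peaks, with a median of 13694 bp (11859 to 16893). For all 459 peaks, a GENCODE gene lay within 5 kb of 110, 5 to 20 kb from 120, 20 to 100 kb from 162, and over 100 kb from 67. Measured to the nearest protein-coding or lncRNA start, the median was 8.08 kb, and 116 peaks (25.3%) lay 1 to 3 kb from one. Median pileup changed little with distance, at 10, 10, 10 and 11 fragments in the 4 distance classes, nearest first. The upper quartiles were 11.75, 12, 11.75 and 16.5 fragments, and the lowest pileup in each class was 7. Beyond 100 kb, 19.4% of peaks sat on a local background of over 3 fragments, against 0.909%, 2.5% and 0.617% in the nearer classes.

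Only 3 peaks lay over 1 Mb from any GENCODE protein-coding gene with a position. They were at chr21:6120500-6120694, with 12 fragments and 4401 kb from TPTE, and the chromosome 1 and chromosome 21 peaks of 807 and 137 fragments, 4385 kb from NOTCH2NLR and 2287 kb from TPTE. RefSeq places the first inside the protein-coding gene LOC102724428. At the other extreme, the members closest to the 1000 bp limit lay 1003 bp from the start of the lncRNA gene ENSG00000289109 (the IGF2BP3 peak), 1006 bp from ENSG00000288835 (11 fragments) and 1007 bp from FOXN4, a forkhead gene (10 fragments). The nearest peaks on the other side lay 990 bp from IRS2, an insulin receptor substrate gene (16 fragments), 966 bp from ENSG00000262521 (9 fragments) and 959 bp from LINC00963 (9 fragments).

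**Figure D2:**
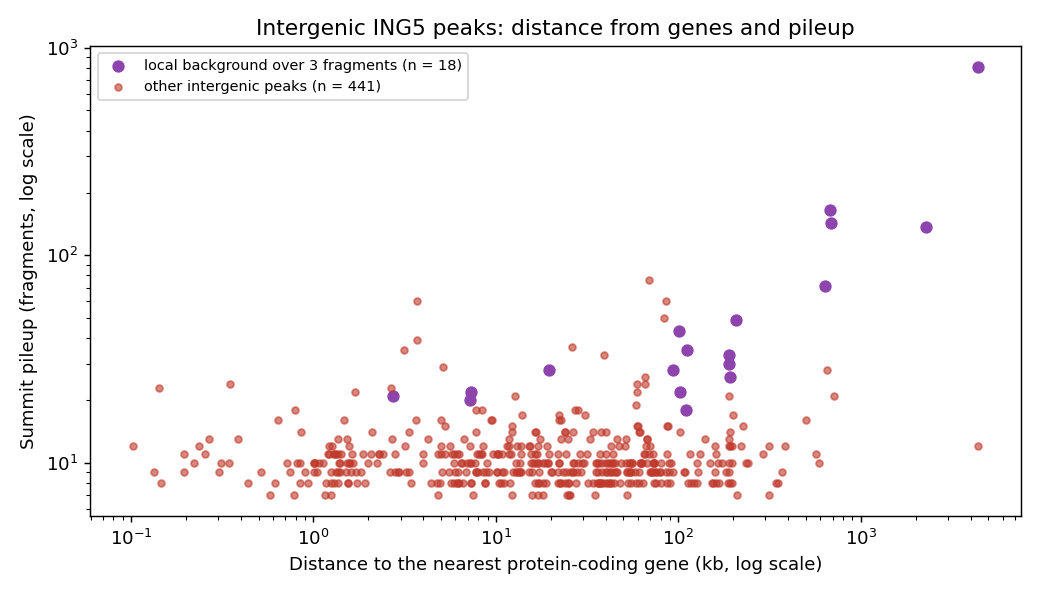
Each of the 459 intergenic peaks by distance to the nearest GENCODE protein-coding gene body with a position (kb, log scale) and summit pileup (fragments, log scale). The 18 peaks on a local background over 3 fragments are drawn larger. Most peaks hold about 10 fragments at every distance, and the points above 100 fragments all lie 679.8 kb or more from such a gene and on a raised background.

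The genes nearest to intergenic peaks often carried a promoter peak. Of 314 distinct nearest genes, 169 (53.8%, 48.1 to 59.4) had a promoter peak, against 6035 of 19624 protein-coding genes (30.8%, 30.1 to 31.4). Counted over peaks instead, so that a gene nearest to several peaks counts each time, the share was lower at greater distance. It was 66.4% (56.7 to 75.1) for peaks with the gene within 5 kb, 60.8% (51.5 to 69.6) at 5 to 20 kb, 49.4% (41.4 to 57.3) at 20 to 100 kb and 32.8% (21.8 to 45.4) beyond 100 kb. The nearest gene's 5′ side faced 208 peaks and its 3′ side 251 (54.7%). The rule favoured the 3′ side here, because summits within 1000 bp of a start were barred while those as close to a 3′ end were allowed. This split therefore cannot be read as a preference. Gene density differs along the genome and was not matched in these shares.

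Intergenic peaks lay near chromosome ends more often than the rest. Within 5 Mb of an end were 176 of 459 intergenic peaks (38.3%, 33.9 to 43.0), 18.5% (17.6 to 19.4) of the other eligible peaks, 31.1% (28.2 to 34.2) of gene-body peaks and 12.3% of protein-coding genes by their start. Of the 176, 143 lay at the high-numbered end of their chromosome and 33 at position 1. The share within 5 Mb of an end was higher for intergenic peaks than for the other peaks on 18 of 23 chromosomes. Within 1 Mb of an end the 2 shares were 5.45% for intergenic peaks and 4.43% for the others.

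The share was smaller when small chromosomes or runs of peaks were set aside. Without chromosomes 20 to 22 the share was 26.1% (21.6 to 30.9) for intergenic peaks, 17.1% for the others and 29.0% (26.0 to 32.1) for gene-body peaks. Without the 2 longest runs, described below, it was 30.8% (26.4 to 35.5) for intergenic peaks, and 30.5% (25.4 to 36.0) with each run counted once. All gene-body peaks had a share of 31.1% (28.2 to 34.2), no lower than these. The 3 intergenic peaks nearest to an end were 1 in the pseudogene AFG3L1P, 0.250 Mb from the end of chromosome 16 with 16 fragments, and a pair near C20orf204, 0.285 and 0.286 Mb from the end of chromosome 20 with 23 and 14 fragments.

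**Figure D3:**
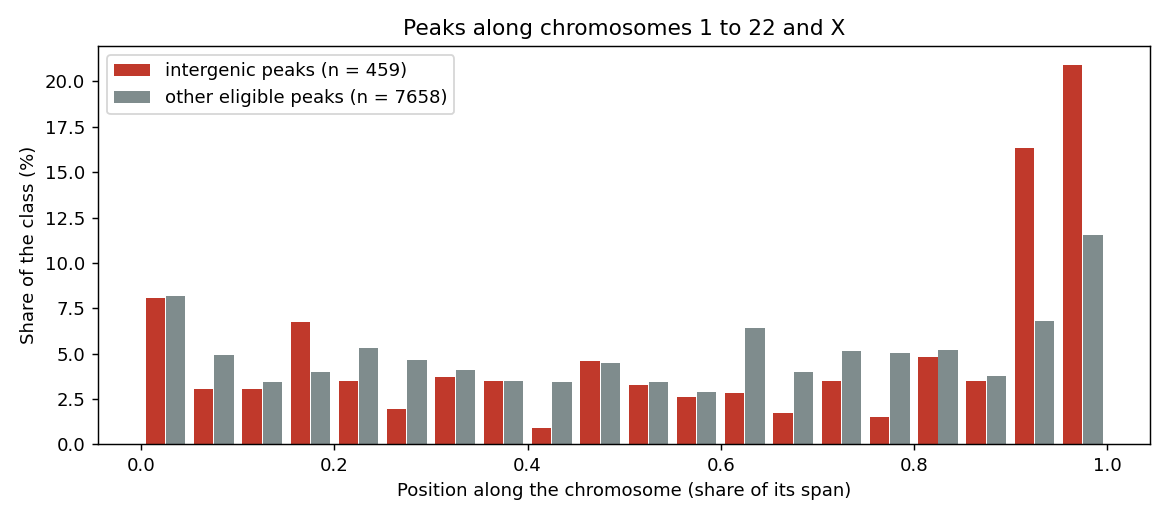
Share of peaks (%) by position along the chromosome in 20 equal bins, from 0 at position 1 to 1 at the last annotated base, for the 459 intergenic peaks and the 7658 other eligible peaks. The last 2 bins hold 16.3% and 20.9% of intergenic peaks, against 6.80% and 11.5% of the others.

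By chromosome, the intergenic share of eligible peaks was highest on chromosome 21, with 32 of 121 (26.4%, 18.8 to 35.2), and chromosome 22, with 44 of 242 (18.2%, 13.5 to 23.6). Chromosome 20 followed with 26 of 258 (10.1%, 6.69 to 14.4), and chromosome 1 had the most peaks, 76 of 1007 (7.55%). Chromosome 3 had the lowest share, 8 of 508 (1.57%, 0.682 to 3.08). The first 2 of these shares rest largely on 1 run each.

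Many intergenic peaks had another peak close by, as had the other classes. Another peak of any kind lay within 10 kb of 235 of them (51.2%, 46.5 to 55.9), of 45.4% of all others, of 54.7% of gene-body peaks and of 55.1% of peaks at a lncRNA start only. Without the 2 longest runs, described next, the intergenic share was 45.2% (40.3 to 50.2). The median distance to the nearest peak was 9292 bp (5854 to 13317) for intergenic peaks and 15777.5 bp (14129 to 17319) for all others, with 6433 bp (4635 to 8504) for gene-body peaks. The nearest promoter peak can be no closer than the nearest peak of any kind, and lay at a median of 62179 bp from intergenic peaks. That median was 16242 bp for gene-body peaks and 53687 bp for peaks at a lncRNA start only. With gaps of up to 50 kb allowed, 250 intergenic peaks stood alone and 209 (45.5%) fell into 58 runs of 2 or more. Just 2 runs, on chromosomes 22 and 21, held 50 of the 459.

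The longest run covered chr22:46006679-46137020 and held 27 intergenic peaks with 7 to 76 fragments, 15 of them inside MIRLET7BHG. Its members lay upstream of WNT7B, a WNT ligand gene, or of PPARA, and 10 other peaks stood among them, 1 of them with 131 fragments. The second covered chr21:43299047-43376759 beyond the 3′ end of SIK1, a salt-inducible kinase gene, with 23 intergenic peaks of 8 to 26 fragments and a median of 5.40-fold. The lncRNA genes LINC00322 and LINC01679 lie in it, with 5 of its peaks inside a lncRNA gene.

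A pair of runs of 7 came next. At chr15:20295625-20358096, beyond GOLGA6L6, the pileups were 10 to 33 fragments and the local background reached 5.01 fragments. At chr22:49943990-50015135, around the kinase gene PIM3 and upstream of IL17REL, the pileups were 8 to 14 fragments, and the background was 0.853 fragments at all 7.

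Another pair of runs was picked out after their values were seen. In 4.58 kb of chromosome 4, at chr4:24324874-24329451, 6 intergenic peaks held 8 to 14 fragments with no other peak among them. RefSeq places them inside PPARGC1A, which encodes a coactivator of mitochondrial and gluconeogenic genes, and the nearest GENCODE protein-coding gene with a position, DHX15, was 189 to 192 kb away. In the HOXA cluster, 5 intergenic peaks held 39, 16, 8, 29 and 10 fragments in order along the chromosome, with 5 other peaks among them.

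**Figure D4:**
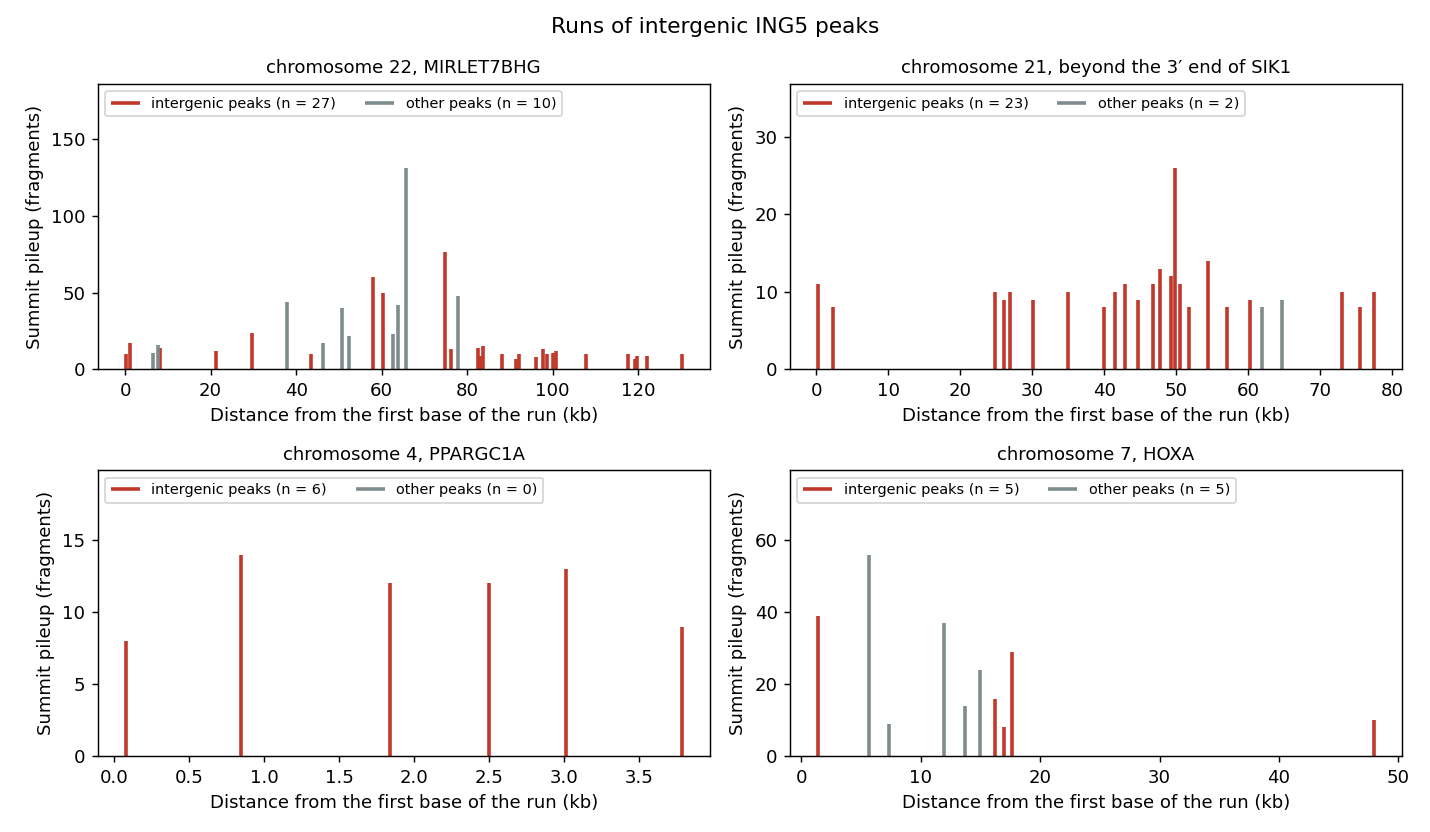
Summit pileup (fragments) of every peak in 4 runs by distance from the run's first base (kb), with intergenic peaks in red and other peaks in grey. The MIRLET7BHG run mixes 27 intergenic with 10 other peaks, the SIK1 run holds 23 intergenic peaks of at most 26 fragments, the PPARGC1A run has 6 intergenic peaks within 4.58 kb, and the HOXA run holds 5 intergenic and 5 other peaks.

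Several lncRNA genes with intergenic peaks are hosts of microRNAs. In all, 107 intergenic peaks lay in 90 GENCODE lncRNA genes, and 10 of these genes held 2 or more. MIRLET7BHG held 15, LINC00322 4, and HOTTIP, MIR23AHG, PICSAR and ENSG00000291073 3 each. MIR193BHG was another with 2. Of 1562 RefSeq hairpins, 9 lay within 1000 bp of an intergenic peak, next to 6 peaks, and none overlapped one. This distance was set after seeing the data.

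Mature sequences of the better known of these microRNAs (RefSeq, GRCh38.p14) are shown to identify the hairpins near intergenic peaks. Each is written 5′ to 3′ with the seed, bases 2 to 8, in capitals. No seed was shared among the 16 mature sequences of the 9 hairpins.
hsa-let-7b-5p: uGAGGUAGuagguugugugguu
hsa-miR-21-5p: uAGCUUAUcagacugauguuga
hsa-miR-23a-3p: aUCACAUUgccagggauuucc
hsa-miR-27a-3p: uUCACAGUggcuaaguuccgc
hsa-miR-24-3p: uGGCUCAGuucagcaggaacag
hsa-miR-365a-3p: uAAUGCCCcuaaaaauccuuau

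The let-7b hairpin, at chr22:46113686-46113768 on the plus strand, lay 585 bp from a peak of 10 fragments and 4.88-fold enrichment. The hairpins of miR-23a, miR-27a and miR-24-2 follow each other on the minus strand of chromosome 19, and lay 224, 366 and 524 bp from the same peak, at chr19:13836883-13837097 in MIR23AHG, with 11 fragments and 6.47-fold enrichment. MIR21's hairpin, at chr17:59841266-59841337 on the plus strand, lay 810 bp from a peak of 11 fragments and 6.47-fold enrichment whose nearest protein-coding gene was VMP1. The miR-365a hairpin, at chr16:14309285-14309371 on the plus strand, lay 210 bp from a peak of 9 fragments. These pileups were all within 1 fragment of the median of intergenic peaks.

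Around protein-coding genes, 599 of 19624 (3.05%) had an intergenic peak within 50 kb of a start. PPARA had the most, with 11, followed by PIM3 and CRELD2, a disulfide isomerase gene, which both had 6. HOX genes had one in 15 of 39 cases (38.5%), but these rested on 6 peaks. The highest was the 21.6-fold peak in HOXA11-AS, 3.69 kb from HOXA11, 8.66 kb from HOXA10 and 6.68 kb from HOXA13. Among AP-1 and early response genes, 7 of 20 (35.0%) had one, led by IER5 at 8.63-fold (16.4 kb away), and JUND and MAFK at 7.01-fold (12.8 and 17.8 kb).

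Among liver transcription factor genes, 3 of 25 had an intergenic peak within 50 kb. NR2F2, an orphan nuclear receptor gene, had one of 9.17-fold and 16 fragments at 7.74 kb, PPARA had 11 of at most 7.01-fold, and CEBPB, an acute-phase regulator, had one of 6.47-fold at 3.13 kb. IGF2BP3 was the one of 14 oncofetal growth genes, and CDKN2C the one of 7 cell cycle inhibitor genes. Forkhead genes had one in 5 of 49 cases (10.2%), led by FOXC1 at 12.9-fold (23 fragments, 4.12 kb), FOXF2 at 7.01-fold, and FOXH1 and FOXN4, which tied at 5.94-fold.

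Smaller groups gave few genes each. Of 19 SOX genes, 3 had an intergenic peak within 50 kb (SOX18 at 7.83-fold, SOX4 at 6.04-fold and SOX13 at 5.45-fold), as did 3 of 20 TGF-beta and SMAD genes (ID1 at 7.55-fold, SMAD7 at 5.94-fold and ID3 at 4.86-fold) and 3 of 39 WNT pathway genes (WNT7B at 7.99-fold, WNT11 at 6.47-fold and WNT9A at 4.86-fold). TFAP2A was the one of 5 AP-2 genes, at 8.18-fold and 20.97 kb, and KLF16 the one of 30 KLF and SP genes, at 5.40-fold.

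In the larger families that had any, the share ran from 0.783% to 4.71%. There was an intergenic peak within 50 kb of 17 of 502 zinc finger genes (3.39%; ZNF165, ZNF283, ZNF33B and ZNF652 tied at 6.47-fold), 4 of 85 cytosolic ribosomal protein genes (4.71%; RPS21 at 6.47-fold and RPS15 at 5.94-fold) and 3 of 383 olfactory receptor genes (0.783%; OR10P1 at 6.47-fold, OR2B2 at 5.99-fold and OR1F1 at 5.94-fold). None was found for the 16 hepatocyte secreted proteins, 17 T-box genes, 4 RUNX genes, 17 genes of ING and MYST complexes, 94 keratin-associated protein genes or 51 clustered protocadherin genes. Neighbouring genes share peaks, so these counts are not independent.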

How the data were processed

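Alignment tools named per the submitters' processing notes are fastp 0.19.6, Bowtie2 and deepTools. Peaks were called with MACS 2.1.1.20160309 on paired-end fragments with p below a cutoff of 1e-05, per the file headers, from alignments whose names say that duplicates and multiply mapped reads had been removed. In the headers the ChIP library goes under a name absent from the labels. Pileup, as deposited, is a coverage signal, the fold enrichment a linear ratio to local background, and significance is given as −log10 p, all values of the authors' peak caller for single peaks. The deposited −log10 q column was not used. The peak length is the deposited one in bp.

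Local background was computed from pileup and fold with a pseudocount of 1 on both. GRCh38 gene positions came from the original positions recorded in the GENCODE 44 annotation, and RefSeq starts on chromosome 8 were not used here. A chromosome's far end was the last base reached by a gene or peak. Medians have exact order-statistic 95% intervals and shares exact binomial (Clopper-Pearson) ones. Python 3.11.15, pandas 2.3.3, numpy 2.4.6, scipy 1.17.1 and matplotlib 3.10.9 were used, and the classing was tested on simulated data.

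The members, gene lists and alternatives were chosen with earlier results of these data known. Peaks were named by rank: the 10 highest in fold, 5 in pileup, 3 in length, 3 in distance from a gene, 3 nearest a chromosome end, the 3 largest runs, and 3 on each side of the 1000 bp limit. Genes were named as nearest to those peaks, as having most intergenic peaks within 50 kb, or as the up to 3 highest of a list. DDIT4, PPP2R2D, LOC124905136, CD24, the PPARGC1A and HOXA runs, the lncRNA genes and the microRNAs were named after their values were seen. Alternatives changed the start window, the annotation, the peaks kept or the runs kept. A few results of these lists are not reported here.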

Additional observations from a re-analysis of the deposited data

Results flagged for a closer look

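The same rule, applied to the first 46 Mb of chromosome 5 and to chromosome 11 from 3 to 5 Mb, found 154 intergenic peaks that the comparisons above do not use, 117 on chromosome 5 and 37 on chromosome 11. Their pileups ran from 8 to 36 fragments. A further 19 peaks lay on 14 sequences other than chromosomes 1 to 22 and X, with 10 to 72 fragments. Both sets were listed by the authors' peak caller as enriched over input.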

How the results depend on the processing

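No paired analysis was possible because each group has 1 library, and no replicate could be left out. Of 80 recomputed values, 55 stayed within the interval or margin of the value above and 25 moved beyond it. The number of peaks has no interval, so a margin was used for it. That margin let a fall from 459 to 343 peaks, with a start window of 3000 bp, count as within it. The share of eligible peaks at the same setting moved. These counts, shares and medians have no direction, so a reversal was not possible. A start window of 3000 bp gave an intergenic share of 4.23% and 43.1% with a peak within 10 kb. Leaving out lncRNA gene bodies gave a share of 4.34% and a median gene distance of 16367.5 bp. Peaks with a p at or below the median p included 161 intergenic peaks (3.53%), with medians of 13 fragments, 7.01-fold and 357 bp, and 60.2% with a neighbour. A fold of at least 6 also left 161 (3.46%), with medians of 15542 bp from a gene, 13 fragments, 7.01-fold and 367 bp, and 61.5% with a neighbour. Both select on height by construction. Peaks on the genome-wide background alone numbered 288, at a median of 13644.5 bp from a gene. The next settings were chosen after seeing the data. Adding RefSeq starts and gene bodies gave a share of 4.84% and a distance of 13694 bp. Without the 2 largest runs the share was 5.07%, the distance 15889 bp, the share near an end 30.8% and that with a neighbour 45.2%. The cause of the shifts in distance was not tested.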

Other observations

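Nuclear lncRNA genes and histone gene clusters also held intergenic peaks, named here after their values were seen. Next to and inside NEAT1, the scaffold RNA of paraspeckles, a run of 4 covered chr11:65417612-65427888 with 10 to 17 fragments. On chromosome 6, runs of 3 lay among histone genes at chr6:27142299-27145944, with 12 to 21 fragments, and at chr6:27827634-27837299, with 14 to 16 fragments. The first of these met the RefSeq gene H2BC12, and its local background reached 3.76 fragments. The histone genes H1-5, H2AC16, H3C11 and H4C13 each had 4 intergenic peaks within 50 kb of a start. The highest fold was 7.52 for every one of them, and as neighbouring genes they share peaks, so these counts overlap.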
